A study of Mus musculus with 2 samples.

Results

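The stem and progenitor genes described here are Cd34, Kit, Flt3, Meis1, Hoxa9, Sox4, Hlf, Cd27 and Mecom, 9 genes of the 19725 that the arrays name. They were chosen by name: every non-control measurement sequence (probe) annotated with one of these symbols was taken, with Mecom also under its older symbol Evi1, which gave 11 of the 41089 gene sequences with a value. RNA came from granulocytes and from monocytes sorted from mouse bone marrow (strain C57BL/6, males, wild type), and each cell type was hybridised to 1 one-colour array, 2 arrays in all. Both cell types therefore share strain, genotype, sex and tissue, and differ in the sort. The sources used here do not give the sort markers, or the age and number of the mice.

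Haematopoietic stem and multipotent progenitor cells of the bone marrow carry surface proteins and transcription factors that are lost step by step as cells commit to a lineage. Kit and Flt3 are receptor tyrosine kinases whose ligands keep progenitors alive and dividing, Cd34 is a sialomucin of the progenitor surface, and Cd27 is a receptor of the tumour necrosis factor family. Hoxa9, Meis1, Mecom, Sox4 and Hlf are transcription factors of the stem and progenitor programme. Granulocytes and monocytes arise from shared myeloid progenitors in which many of these genes are still transcribed.

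The array sequences of the members are 60 bases long, and 3 of them, from transcription factor genes, are shown as examples of what was measured. Those of Sox4 and Mecom gave the values used for these genes, and that of Meis1 is the dimmer of its sequences. Each is given 5′ to 3′ in the sense of the mRNA, and each holds at least 1 reading frame without a stop codon (1 for Meis1 and Mecom, 2 for Sox4).
Meis1: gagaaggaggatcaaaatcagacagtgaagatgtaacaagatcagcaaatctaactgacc
Sox4: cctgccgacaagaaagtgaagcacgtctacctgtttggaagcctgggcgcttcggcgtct
Mecom: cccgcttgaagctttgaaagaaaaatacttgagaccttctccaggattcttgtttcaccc
In the build mm8 the files place them on chromosome 11 at 18911247 to 18911306 (Meis1), chromosome 13 at 28959662 to 28959721 (Sox4) and chromosome 3 at 30168336 to 30168395 (Mecom), all on the minus strand. The second Meis1 sequence lies at 18781206 to 18781265 of the same chromosome, and the second Mecom sequence at 30143075 to 30143134. The surface genes were measured on chromosome 1 at 196661922 to 196661981 (Cd34), chromosome 6 at 125198677 to 125198736 (Cd27) and chromosome 5 at 75937959 to 75938018 (Kit) and 147658368 to 147658427 (Flt3), and Hlf on chromosome 11 at 90154754 to 90154813. Annotated exons and UTRs of mm8 were not used.

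Signals are the scanner software's background-subtracted intensities in arbitrary units, each given with that software's own error of the spot, which covers the reading of the spot and not the spread between mice. Differences are granulocyte minus monocyte on the log2 scale after each array was set relative to its 75th percentile. That scaling added 0.87 to every difference, so equal signals give a positive difference, and the median over the 14183 genes well above background on both arrays was 0.47. With 1 array per cell type no test was possible, no difference below has a replicate check, and genes are counted by size, at least 4-fold (2 on the log2 scale).

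The markers went with the labels. All 12 granulocyte markers (median difference 4.47) and 11 of 11 monocyte markers (median -6.63) were well above background on both arrays. At least 4-fold higher on the array of their own cell type were 8 and 10 of them, respectively. Some genes of the granulocyte list were bright on the monocyte array as well, led by S100a9 (signal 257392) and S100a8 (118703). Mmp9 gave 227 there. Summed over the granulocyte list, the level relative to the 75th percentile was 4389 on the granulocyte and 1044 on the monocyte array. S100a9 and S100a8 made up most of the monocyte sum. The monocyte list summed to 17.2 and 668.

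Of the 9 members, 8 were well above background on at least 1 array and 7 on both. Cd34 and Cd27 were at least 4-fold higher in monocytes, 2 of 8 members, where 10.4% of all 15609 genes above background were called in that direction. None of the 8 was at least 4-fold higher in granulocytes, where 8.54% of all genes were. The members did not go 1 way. Flt3 lay on the monocyte side by less than 4-fold and Meis1 by a bound under 4-fold, which sets no upper limit. Kit, Mecom and Hlf lay on the granulocyte side by less than 4-fold. Sox4 was near 0, and Hoxa9 was not well above background on either array. The median difference of the 8 was -0.49 (all genes 0.45), and over the 7 measured on both arrays it was 0.15 (all genes 0.47). With the sequence of smallest difference taken for each gene, the median of the 8 was 0.055 (all genes 0.37). The sign of the median thus turned on whether Meis1, which has only bounds, was counted, and by which of its sequences.

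**Figure D1:**
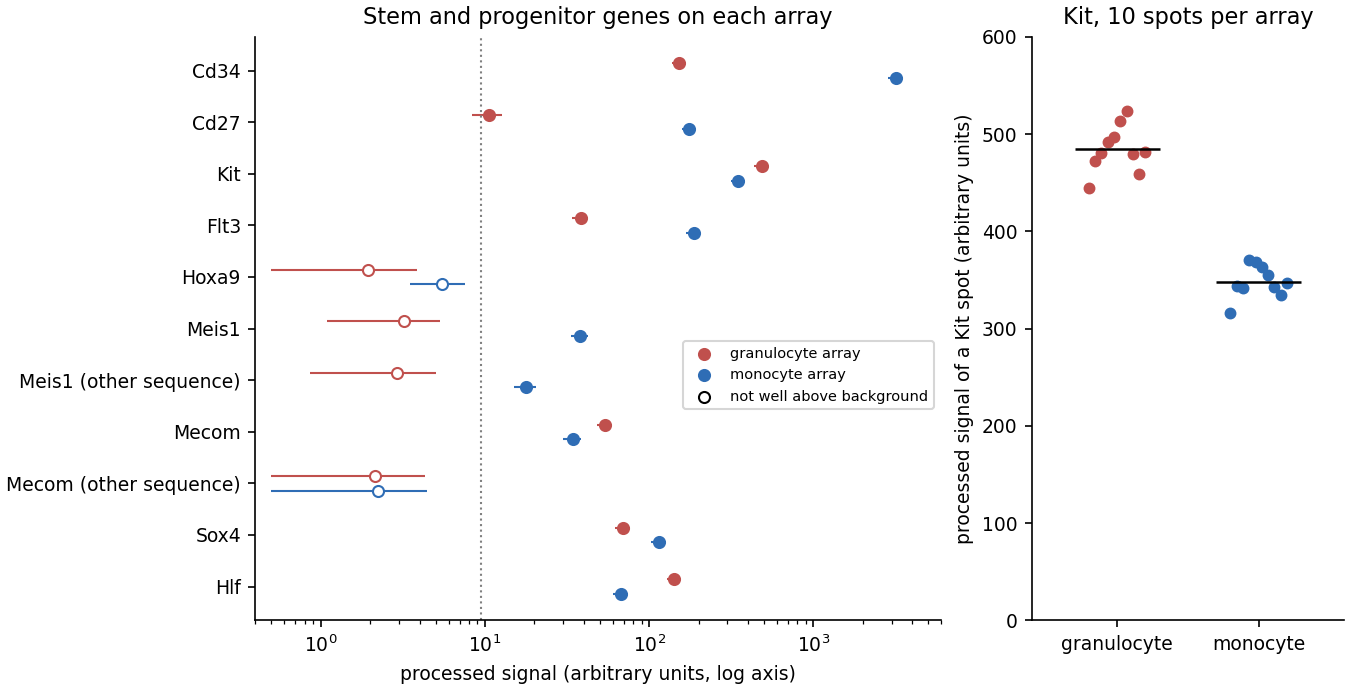
Processed signal of the 11 member sequences in granulocytes (red) and monocytes (blue) on a log axis, with the scanner software's error as bars (drawn down to no less than 0.5), and the 10 Kit spots of each array on a linear axis with their mean as a line. Open circles were not well above background, and the dotted line is the lowest signal called well above background, 9.46. Cd34 stands at 153 and 3183, while Hoxa9 stays left of the dotted line on both arrays.

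Cd34, the surface sialomucin, differed the most among the members. Its signal was 153 ± 15.4 (software error) in granulocytes and 3183 ± 318 in monocytes. The monocyte value was the higher, by a difference of -3.51, or 11.4-fold after scaling, and -3.98 relative to the all-gene median. Of the 15237 genes with a difference or a bound, 2.80% had a lower value. In RNA from a sorted population, a cell type that makes up fewer of the cells and less RNA per cell cannot be told apart.

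Genes that immature myeloid cells transcribe for their granules lay on the same side as Cd34. All 7 of the early myeloid granule list were below the all-gene median, 6 of them by 4-fold or more towards monocytes, and their median was -3.40. The protease genes Elane (-3.67), Prtn3 (-3.56) and Ctsg (-3.40) and the cystatin gene Cst7 (-3.47) had the largest differences, and Cebpa, a transcription factor of myeloid progenitors, stood at -1.68. The list's summed level was 49.3 on the granulocyte and 410 on the monocyte array. Its part in the Cd34 difference was not tested. CD34 is also a protein of blood vessel walls. Of 13 endothelial and stromal markers, 9 were well above background on the granulocyte and 11 on the monocyte array. The endothelial cadherin gene Cdh5 was not well above background in granulocytes. In monocytes it was at least 3.12-fold higher, the same side as Cd34. Emcn went the other way: it was not well above background in monocytes and at least 2.69-fold higher in granulocytes. Cxcl12 (3.52-fold) and Vwf (2.83-fold) were also higher in granulocytes. Of the list, 7 genes lay above and 4 below the all-gene median. Lepr was not well above background on either array. The list had a median of 1.12. The collagen gene Col1a1 (3.95, and 2.52 and 0.57 by its other sequences) alone passed 4-fold towards granulocytes and 0 genes did towards monocytes. The list summed to 2.93 in granulocytes, a sum that includes Col1a1, and to 0.97 in monocytes. Its part in the Cd34 difference was not tested.

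Cd27, which is found on multipotent progenitors and on T and NK cells, gave a signal of 10.5 ± 2.23 in granulocytes and 175 ± 17.6 in monocytes. The difference was -3.18 (9.09-fold higher in monocytes), or -3.65 relative to the all-gene median. The granulocyte value sits just above 9.46, the lowest signal called well above background there. After normexp background correction, which adds an offset to every spot and shrinks the differences of dim ones, the difference was -1.03, under 4-fold. Cd70, the ligand of CD27, was dim on both arrays at 12.1 ± 2.28 and 13.7 ± 2.37 (0.69).

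Markers of NK cells lay on the same side as Cd27, and those of T cells on both sides. Of 12 NK-cell markers 11 were above background on at least 1 array. Of these 9 passed 4-fold towards monocytes and 0 towards granulocytes. The median was -2.77, and the list was led by Klrd1 (-4.53), Il2rb (-4.13), Txk (-3.82) and Klra7 (-3.61). The list summed to 2.03 on the granulocyte and 20.4 on the monocyte array, and Nkg7 (-3.29) made up most of both sums. The NK receptor gene Ncr1 was not well above background on either array. Of 12 T-cell markers 2 were at least 4-fold higher in monocytes, the kinase gene Lck (-3.98) and the antigen receptor gene Cd3g (-3.44). Cd3d stood at 1.76 and Cd8a at -1.76. Some sequences that did not enter the count lay further towards monocytes. Cd8b1 stood at 0.45 by its counted sequence and at -4.13 by its other. Other sequences of Cd8a were at least 13.7-fold and 3.33-fold higher in monocytes, and 1 of Tcf7 (counted at -1.10) at least 8.32-fold. That list had a median of -1.21, with 2 genes above and 10 below the all-gene median. It summed to 7.19 in granulocytes, most of it Cd3d, and to 6.32 in monocytes. The part of either list in the Cd27 difference was not tested.

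The 250 bases before the start sites of Cd34 and Cd27, which were both higher in monocytes, and of Kit, which was not, are shown 5′ to 3′ on the gene's strand, from RefSeq with the build GRCm38.p6. They lie at chr1:194938571-194938820 on the plus strand for Cd34, chr6:125237028-125237277 on the minus strand for Cd27 and chr5:75574737-75574986 on the plus strand for Kit. Capitals mark a match to 1 of 5 motifs searched on both strands: GAGGAA for ETS factors such as PU.1, TGTGGT for RUNX factors, AGATAA for GATA factors, TTGCNNAA for C/EBP factors and TGATTNAT for HOX-PBX pairs.
Cd34: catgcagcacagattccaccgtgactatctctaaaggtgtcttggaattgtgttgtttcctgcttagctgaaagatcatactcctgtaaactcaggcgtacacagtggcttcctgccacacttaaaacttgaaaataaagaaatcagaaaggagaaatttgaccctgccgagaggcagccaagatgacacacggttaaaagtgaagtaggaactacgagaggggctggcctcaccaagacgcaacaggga
Cd27: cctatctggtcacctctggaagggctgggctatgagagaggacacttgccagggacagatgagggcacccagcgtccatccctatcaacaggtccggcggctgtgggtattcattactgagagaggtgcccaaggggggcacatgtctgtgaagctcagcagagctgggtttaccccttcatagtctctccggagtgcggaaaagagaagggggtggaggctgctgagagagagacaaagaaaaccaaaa
Kit: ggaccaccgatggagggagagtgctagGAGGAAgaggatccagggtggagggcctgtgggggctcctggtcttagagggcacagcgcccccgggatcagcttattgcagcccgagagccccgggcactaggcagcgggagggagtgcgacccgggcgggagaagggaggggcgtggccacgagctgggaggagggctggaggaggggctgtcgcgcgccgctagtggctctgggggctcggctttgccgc
The Cd34 and Cd27 windows held none of the 5 motifs in these letters, and the Kit window held 1 ETS match, at 223 to 218 bases before the start site. Among all 9 members, whose promoters were all in the table, the ETS letters stood in 3 (Hoxa9, Kit and Sox4), against 23.2% of 32851 promoter windows of the same length. The RUNX letters stood in 1 (Meis1), against 14.1%. The GATA, C/EBP and HOX-PBX letters stood in none of the members, against 9.99%, 9.56% and 2.83% of all windows. No match overlapped another. Guanine and cytosine made up 46.4% of the Cd34 window, 56.0% of the Cd27 window and 70.8% of the Kit window (median of all windows 52.4%).

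Kit, the receptor for stem cell factor, was the member measured best, with 10 spots of the same sequence on each array. The granulocyte spots read from 444 to 524 with a mean of 484 ± 23.6 (SD over 10 spots), and the monocyte spots from 316 to 370 with a mean of 348 ± 16.7. The spots of the arrays did not overlap, so spot noise is smaller than the difference, but the 10 spots share 1 RNA sample and are not replicates of a cell type. After scaling the difference was 1.35 (2.54-fold higher in granulocytes), or 0.88 relative to the all-gene median, and 81.2% of genes had a lower one. Without scaling it was 0.48.

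KIT is also the defining receptor of mast cells. Of 12 mast cell and basophil markers 11 were well above background on both arrays and Tpsab1 on neither. The histidine decarboxylase gene Hdc (5.03) and the mast cell protease gene Cpa3 (2.35) passed 4-fold towards granulocytes, and Prss34 (1.91) and Gata2 (1.76) followed. Of the list, 9 genes lay above the all-gene median and 2 below it, Ms4a2 (-0.07) and Mitf (-0.09). The list's median was 1.13, and it summed to 333 on the granulocyte and 12.2 on the monocyte array. Hdc, at a signal of 111367 ± 11137 and 6250 ± 625, made up most of both sums. Its granulocyte signal was as high as those of the granulocyte markers Retnlg (102723) and Mmp9 (99246). No other marker of the mast cell and basophil list was brighter than 820 in granulocytes or 569 in monocytes. The list's part in the Kit difference was not tested. Kitl, the gene of stem cell factor, was not well above background on either array.

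Flt3, the other receptor kinase, lay on the opposite side. Its signal was 38.4 ± 4.29 in granulocytes and 186 ± 18.7 in monocytes. The difference was -1.41 (2.66-fold higher in monocytes), -1.88 relative to the all-gene median, and it went from -2.28 without scaling to -0.58 after normexp correction. Its ligand gene Flt3l was above background on both arrays and gave 0.51. Kit and Flt3 belong to the same receptor class as the M-CSF receptor gene Csf1r, which stood at -1.56. In the list of ligands, receptor relatives and surface partners, 2 of the 9 genes above background, Csf1 (3.19) and the selectin gene Selp (3.02), passed 4-fold towards granulocytes and 0 towards monocytes. The list's median was 0.80.

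Flt3 is also carried by dendritic cells and their precursors. Of 10 dendritic cell markers, Flt3 itself among them, 4 were at least 4-fold higher in monocytes, namely Clec10a (-6.15), Batf3 (-4.18), Cd209a (at least 15.0-fold) and the class II gene H2-Aa (-2.52). Itgax (2.93, and 1.30 by its other sequence) was at least 4-fold higher in granulocytes by the sequence counted. The list had a median of -0.98 and summed to 4.13 on the granulocyte and 18.3 on the monocyte array. Itgax made up most of the granulocyte sum and Clec10a most of the monocyte sum. Of 10 plasmacytoid dendritic cell markers 5 passed 4-fold towards monocytes and 0 towards granulocytes. They were Siglech (at least 15.6-fold), which was not well above background in granulocytes, Pacsin1 (-3.06), Tcf4 (-2.52), Bst2 (-2.38) and Cox6a2 (-2.28). The other sequences of Pacsin1 gave 0.65 and at least 9.43-fold higher in monocytes, and those of Tcf4 -2.50 and -0.66. In the plasmacytoid list 1 gene lay above the all-gene median, Klk1 (1.09, and -2.34 by its other sequence), and 9 lay below it. That list had a median of -2.03 and summed to 16.1 and 39.1, and Bst2 made up most of the monocyte sum. The part of these lists in the Flt3 difference was not tested.

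**Figure D2:**
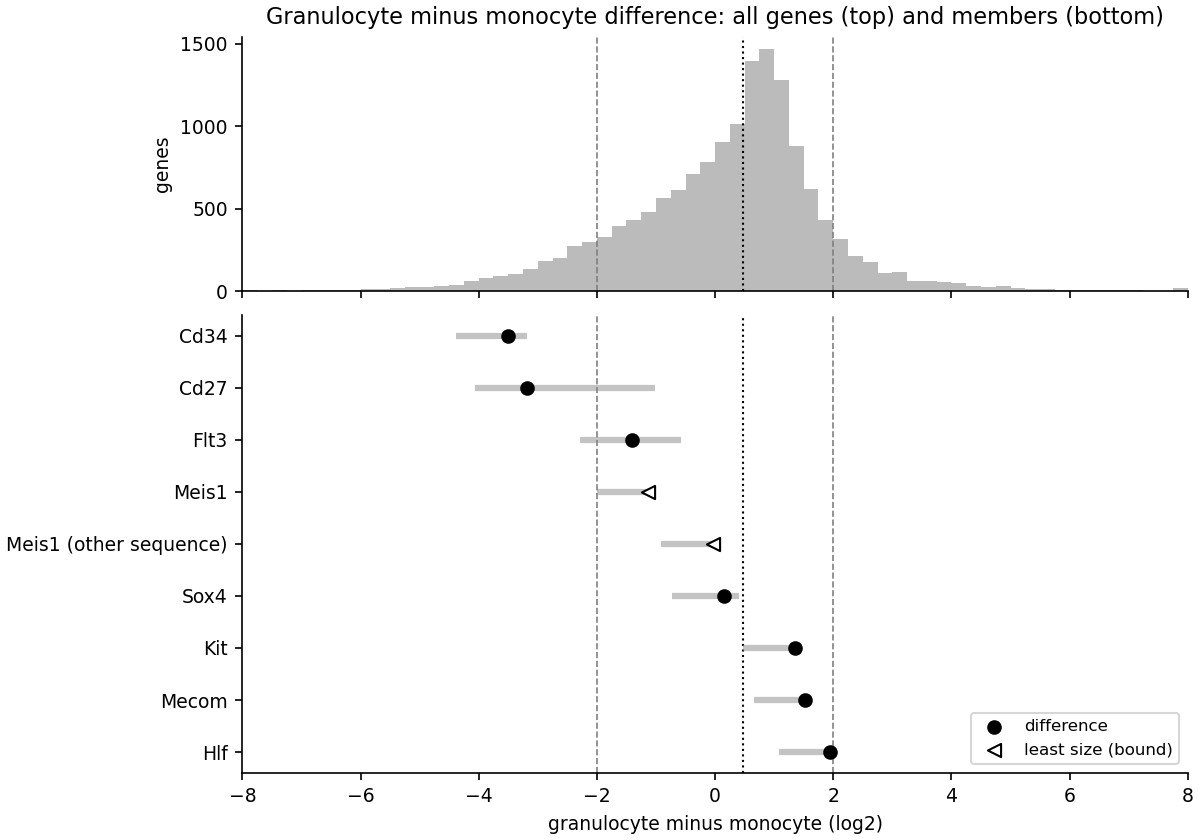
Granulocyte minus monocyte difference on the log2 scale for the 15237 genes with a difference or a bound, out of 15609 counted above (top, bars count genes per bin of 0.25, with genes beyond -8 or 8 in the outermost bars) and for the member sequences (bottom). Filled circles are differences, open triangles the least size of a difference towards monocytes, and grey bands span the other scalings and background corrections; dashed lines mark 4-fold and the dotted line the all-gene median of 0.47. Cd34 lies beyond the 4-fold line over its whole band (-4.38 to -3.19), and Hlf at 1.95 lies just inside it.

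Hoxa9 and Meis1 encode homeodomain proteins that bind DNA together, with PBX proteins as further partners, and keep progenitors in an immature state. Hoxa9 gave 1.93 ± 1.93 in granulocytes and 5.51 ± 2.02 in monocytes, not well above background on either array, so no fold is given. Meis1 was well above background in monocytes but not in granulocytes. Its brighter sequence gave 3.20 ± 2.12 in granulocytes, not well above background, and 38.0 ± 4.37 in monocytes, which makes it at least 2.19-fold higher there. The other Meis1 sequence, the one printed above, gave 2.93 ± 2.07 and 17.8 ± 2.77, at least 1.03-fold higher in monocytes. Both sequences were called in the same cell type, at signals near the limit of the array.

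The neighbours of Hoxa9 in the HoxA cluster did not share 1 pattern. Hoxa7 was 7.44 ± 2.38 in granulocytes, not well above background, and 116 ± 11.9 in monocytes, at least 6.73-fold higher there. Hoxa5 and Hoxa10 were not well above background on either array. Over the list of 18 HoxA and partner genes, 11 were above background on at least 1 array. Of these, 3 passed 4-fold towards granulocytes and 2 towards monocytes, and the median was 0.53.

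Pbx2 and Pbx3, which encode PBX partners, both differed by more than 4-fold, but in opposite directions. Pbx2 gave 8646 ± 865 in granulocytes and 2743 ± 274 in monocytes, a difference of 2.53 (5.77-fold higher in granulocytes), and 2.26 by its other sequence. Pbx3 went the other way with 43.3 ± 4.80 and 554 ± 55.4 (-2.81), by its sole sequence above background. Pknox1, a related partner gene (2.44), also passed 4-fold towards granulocytes. Without scaling, which lowers each difference by 0.87, Pbx2 and Pknox1 fall under 4-fold.

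Mecom encodes the zinc finger protein EVI1 of long-term stem cells and, from an upstream start, a longer form with a PR domain that takes in the sequence once called Mds1. Its detected Evi1 sequence gave 53.9 ± 5.93 in granulocytes and 34.2 ± 4.30 in monocytes. The difference was 1.53 (2.88-fold higher in granulocytes), 1.06 relative to the all-gene median, and 0.66 without scaling. The other Evi1 sequence was not well above background on either array, at 2.15 ± 2.14 and 2.23 ± 2.23. A sequence named Mds1, which is outside the rule but which RefSeq assigns to Mecom, gave 12.8 ± 2.55 in granulocytes and 2.30 ± 2.29, not well above background, in monocytes, at least 2.48-fold higher in granulocytes. It lies on chromosome 3 at 30427604 to 30427663. The Evi1 and Mds1 sequences that were detected thus lay on the same side. Prdm16, the PR domain relative of Mecom, lay on the other: 8.63 ± 2.32 in granulocytes, not well above background, and 274 ± 27.5 in monocytes, at least 15.8-fold higher there.

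Sox4, a SOX factor of progenitors, gave 69.5 ± 7.44 in granulocytes and 115 ± 11.8 in monocytes. After scaling the difference was 0.15, or -0.32 relative to the all-gene median, and 42.3% of genes had a lower one. Its sign depended on the scaling, from -0.72 without scaling to 0.41 after normexp correction, so no direction is given. Sox12, of the same SOX group, was near it at 0.63, and Sox11 was not well above background on either array.

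Hlf, a PAR bZIP factor whose transcription is a mark of stem cells, had the largest difference towards granulocytes among the members. It gave 142 ± 14.4 in granulocytes and 67.5 ± 7.04 in monocytes. The difference was 1.95 (3.85-fold higher in granulocytes), 1.48 relative to the all-gene median, with 90.7% of genes lower. It stayed above 0 under the 7 alternative settings tried for it, from 1.07 to 1.94. Its relatives did not follow: Dbp stood at 0.21, and Tef at -2.19 by 1 sequence and 0.14 by another. Nfil3, a repressor that binds the same DNA sites, stood at 0.43 and 0.69. Of the 6 transcription factor relatives listed, 5 were above background. None of these passed 4-fold towards granulocytes and 2 did towards monocytes (Prdm16 and Tef), with a median of 0.21.

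A wider list of stem and multipotent progenitor genes held genes past 4-fold in both directions. Of 34 genes 30 were above background on at least 1 array, and 2 of these passed 4-fold towards granulocytes and 5 towards monocytes. Their median was 0.73. On the monocyte side were the surface genes Cd48 (-5.31, and -5.42 by its other sequence) and Thy1 (-5.06, and at least 2.90-fold by its other), Prdm16, Nrip1 (-3.23) and Mllt3 (-2.61). The other Mllt3 sequences measured on both arrays ranged from -3.12 to 0.15. Thy1 is also a T-cell gene and Cd48 a gene of most leukocytes. On the granulocyte side were the chromatin organiser gene Satb1 (3.59 and 3.58) and the ETS factor gene Erg (3.18, and at least 13.3-fold by its other sequence).

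Factors of the same progenitor network differed less. Runx1 stood at 1.24 and 0.11 by its sequences and Gata2 at 1.76 and 1.97. Myb, which is needed for progenitor growth, stood at 0.41, with its other 3 sequences from -0.82 to 0.72. The receptor gene Slamf1 and the stem cell genes Fgd5 and Hoxb5 were not well above background on either array, like Hoxa9. Slamf1, Fgd5, Hoxb5, Cebpa, H2-Aa, Cox6a2, Pknox1, Nrip1, Mllt3, Ncr1, Tpsab1, Emcn, Lepr, Cd8b1 and Tcf7 fall outside the rule for naming genes. So do S100a8, S100a9, Ms4a2, Mitf, Nkg7, Xcr1, Zbtb46, Clec9a, Ccr7 and Klk1. All of these were named after their values had been seen.

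**Figure D3:**
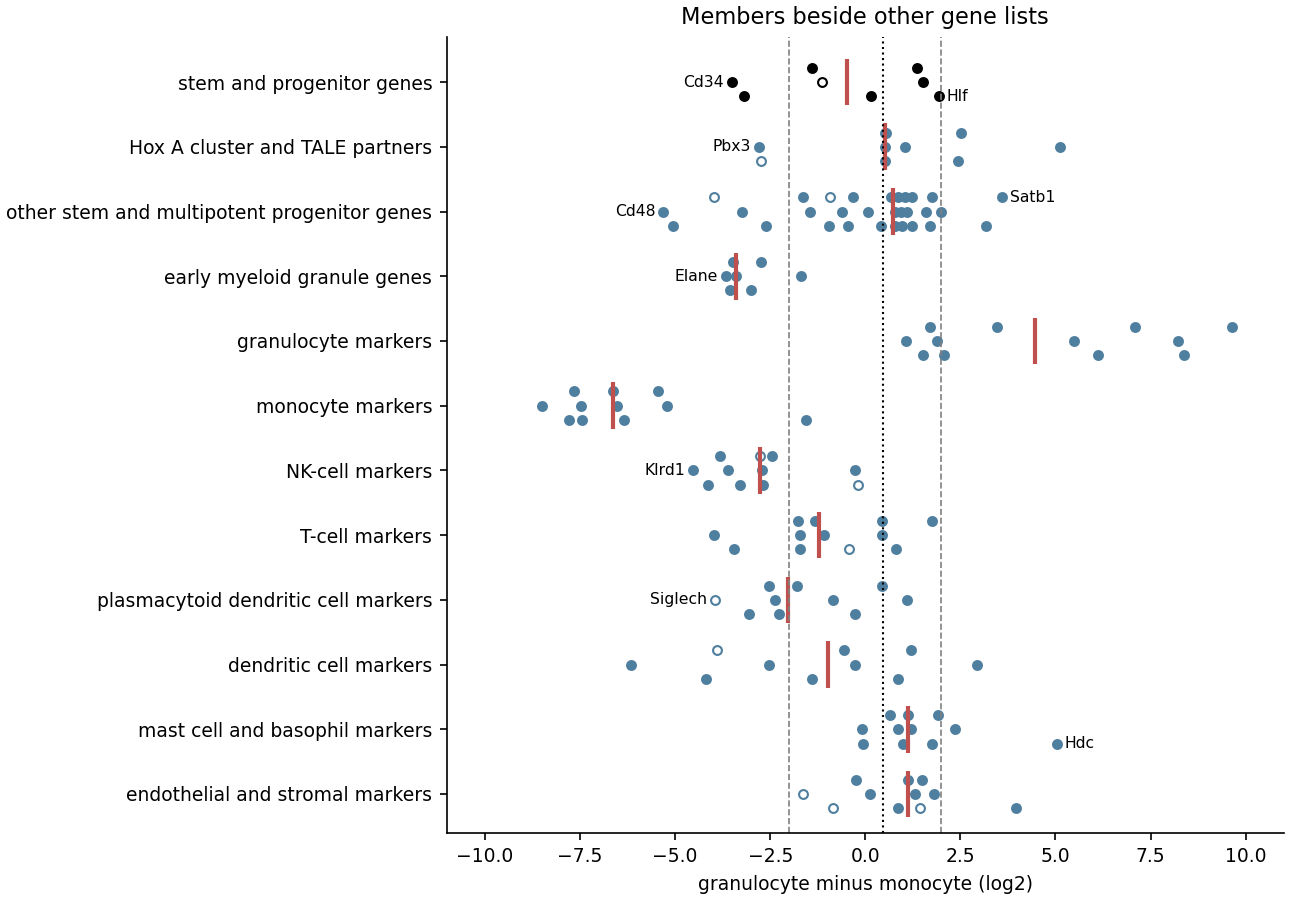
Granulocyte minus monocyte difference on the log2 scale of the members (black) and of 11 other gene lists, 1 point per gene, with the list median as a red bar, open circles for least sizes, dashed lines at 4-fold and a dotted line at the all-gene median of 0.47. The members spread from Cd34 at -3.51 to Hlf at 1.95, while the early myeloid granule genes lie together around -3.40.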

How the data were processed

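The labels' protocols state column purification of total RNA with DNase digestion, linear T7 amplification of 0.5 µg and Cy3 labelling. Per the file headers, Agilent Feature Extraction 10.5.1.1 gave each spot an intensity with background subtracted and trends removed, with flags, in the build mm8. The authors' deposited value table held log2 signal plus 1 constant per array (-0.24 and -0.92, 100% of values within 0.01), and the sources used here do not give its rule.

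Of the spots, 43379 per array were gene spots. Outlier spots (143 granulocyte, 103 monocyte, 0 of members) were dropped and 0 were saturated. Values are log2 processed signal minus the array's 75th percentile (339.4 and 620.9), averaged over spots. A gene was represented by its sequence well above background on most arrays, then the brightest. "At least" marks a bound against the lowest signal well above background or the dim spot's own. Symbols follow RefSeq (GRCm38.p6). Slide and scan were shared. The number of arrays limits precision.

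Named were all members, up to 4 genes per list with the largest differences and a fixed set of partners; a few items so selected are not reported here, though counts and medians include them. Members and lists were chosen with earlier results of these data known. Alternatives were other scalings, limma 3.58.1 normexp (offset 50), the deposited table and other filters, probe rules and sizes. Some of the steps, but not all, were tested on simulated data.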

Additional observations from a re-analysis of the deposited data

How the results depend on the processing

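With 1 array per cell type these alternatives say nothing of the spread between mice. No paired analysis was possible because each cell type has 1 array and the result comes from no test. Cd34 and Cd27 stayed at least 4-fold higher in monocytes under all other scalings, under the deposited table and at 8-fold, but the count of such members was 4 without scaling (with Flt3 and Meis1), 1 after normexp correction (Cd34) and 4 at 2-fold; at 2-fold 3 were higher in granulocytes. The members' median was -1.36 without scaling, -1.04 with the spike-in controls, 0.41 after normexp correction, 0.15 over sequences above background on both arrays, -0.22 with the mean over sequences and 0.055 with the smallest difference. Over all genes, counts for monocytes became 3013 without scaling, 895 with normexp, 3258 at 2-fold and 667 at 8-fold. Those for granulocytes became 581 without scaling, 766 with spike-in controls, 872 with normexp, 4538 at 2-fold and 522 at 8-fold. Granulocytes held 45.1% of the calls, against 16.2% without scaling and 24.0% with spike-in controls. Background limits the values of Hoxa9 on both arrays and of Meis1 and Cd27 in granulocytes.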
